A study of Mus musculus with 12 samples.

Results

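The 7 genes Msh3, Msh6, Mlh3, Pms1, Pms2, Fan1 and Lig1 encode mismatch repair proteins and factors that change the length of expanded CAG repeats. They were taken by symbol from the count tables of 12 mouse brain libraries, and all 7 were found, each as 1 of the 23282 gene rows. R6/2 HD mice, which carry a transgene of human HTT exon 1 with an expanded CAG tract, were compared with their WT littermates, which have none. Striatum and cortex were taken at 8 weeks, before symptom onset, and at 13 weeks, after it. Each HD group of one age and region had 2 libraries and each WT group had 1, and no treatment was given in the labels. The R6/2 transgene is a fragment under the human HTT promoter, placed beside both intact mouse Htt copies, so it models an N-terminal fragment and not a mutant full-length protein. Transgene RNA was not analysed here.

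Mismatch repair starts when a MutS complex binds a distorted site in DNA. The complex with MSH6 binds mispaired bases, and the complex with MSH3 binds small extruded loops such as those formed by CAG repeats. A MutL complex with PMS2, PMS1 or MLH3 follows, and the nuclease activity of PMS2 or MLH3 nicks the strand. FAN1 is a nuclease that slows repeat expansion, and LIG1 seals the nick that remains after repair synthesis. In neurons of the striatum, loop repair of this kind lengthens the CAG tract over life, loss of Msh3 or Mlh3 suppresses that lengthening in HD mice, and variants near several of these genes shift the age at onset in patients.

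All 7 genes are protein-coding in GENCODE M21 on GRCm38, the build that the submitters' processing notes name as mm10. Msh3 lies at chr13:92211872-92355003 on the minus strand. Msh6 lies at chr17:87975062-87990892 on the plus strand, and its last 34 bases overlap the end of Fbxo11. Mlh3 lies at chr12:85234520-85270599 and Pms1 at chr1:53189187-53297018, both on the minus strand. Pms2 lies at chr5:143909964-143933968 on the plus strand, and its last 934 bases overlap Rsph10b on the same strand. Fan1 lies at chr7:64346758-64374095 on the minus strand with no overlapping gene, and Lig1 at chr7:13277283-13311433 on the plus strand, where its start overlaps Zswim9. The libraries read the 3′ ends of transcripts, so the overlaps at the ends of Msh6 and Pms2 may touch what was counted. Rsph10b had no row in the count tables and lies on the strand of Pms2, so strand would not separate their reads. Whether counting used strand is not given in the sources used here.

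Mlh3 was the 1 member that passed against WT mice, over both ages, and Fan1 had counts in HD libraries alone, so the stretch just before each RefSeq start site is shown, without any base of an annotated exon, as given for GRCm38.p6. Capitals mark a match to CCAAT on either strand (here ATTGG).
Mlh3, chr12:85270600-85270849, minus strand: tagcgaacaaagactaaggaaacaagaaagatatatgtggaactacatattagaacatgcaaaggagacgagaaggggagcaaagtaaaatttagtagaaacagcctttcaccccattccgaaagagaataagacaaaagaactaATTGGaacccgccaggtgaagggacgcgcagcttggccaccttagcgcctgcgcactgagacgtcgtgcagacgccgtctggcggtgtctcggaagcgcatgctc
Fan1, chr7:64374096-64374306, minus strand: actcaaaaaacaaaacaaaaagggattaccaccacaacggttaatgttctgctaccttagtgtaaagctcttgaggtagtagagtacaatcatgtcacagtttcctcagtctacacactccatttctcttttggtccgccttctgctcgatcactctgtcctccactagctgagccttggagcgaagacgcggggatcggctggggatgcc
CCAAT occurred once in the 250 bases of Mlh3, as it did at least once in 33.8% of the 32851 RefSeq promoter stretches of that length, and it was not in the 211 bases of Fan1. Neither stretch held GGGCGG, the GC box, found in 32.7% of stretches of 250 bases, or an E2F-type word (TTTCCCGC, TTTGGCGC or TTTCGCGC), found in 1.53%. Over the first 250 bases of the members' promoter stretches, CCAAT was found for Msh6, Mlh3, Pms1 and Pms2. An E2F-type word was found there for Msh3 and for no other member. A GC box was found for Msh3, Msh6, Pms2 and 1 of the 3 stretches of Lig1. These are matches of letters and not measured binding.

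Total counts per library ran from 8814386 to 12091201, and levels below are in CPM, each count divided by a library size that was scaled with TMM, a normalization that sets aside genes that differ most. The striatal sample of the second pre-symptomatic HD replicate stood apart: its 6 striatal markers summed to 2017 CPM against 6369 CPM in the other replicate, its oligodendrocyte markers to 19070 against 3029 CPM, and its thalamus markers to 1612 against 133.3 CPM. The same striatal markers summed to 1145 and 1178 CPM in the post-symptomatic HD striatum and to 6314 and 6917 CPM in the WT striatum. In bulk tissue, fewer cells of a type and less RNA per cell cannot be told apart. Rn45s, the ribosomal RNA precursor, made up 10.5% to 15.2% of each HD library and 4.32% to 5.62% of each WT library. Xist and Ddx3y showed the first HD replicates to be male and the second female, the post-symptomatic WT libraries female and the pre-symptomatic WT libraries male. Replicates 1 and 2 of each HD group therefore came from different mice, and the spread between them includes sex. Whether the striatal and cortical samples of one number shared a mouse is not given in the labels.

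Of the members, 5 were measured well in every library and 2 were near the limit of detection. Msh3, Msh6, Mlh3 and Lig1 had from 147 to 584 counts per library and Pms2 from 47 to 186. Pms1 had only 8 to 30 counts, where counting error alone is 22.4% at its median of 20, and Fan1 had 0 to 19 with 6 libraries at 0. Msh3 and Msh6 spanned the narrowest range, 1.75-fold and 1.82-fold between the lowest and highest library, and Mlh3 spanned 3.02-fold and Pms2 3.19-fold.

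**Figure D1:**
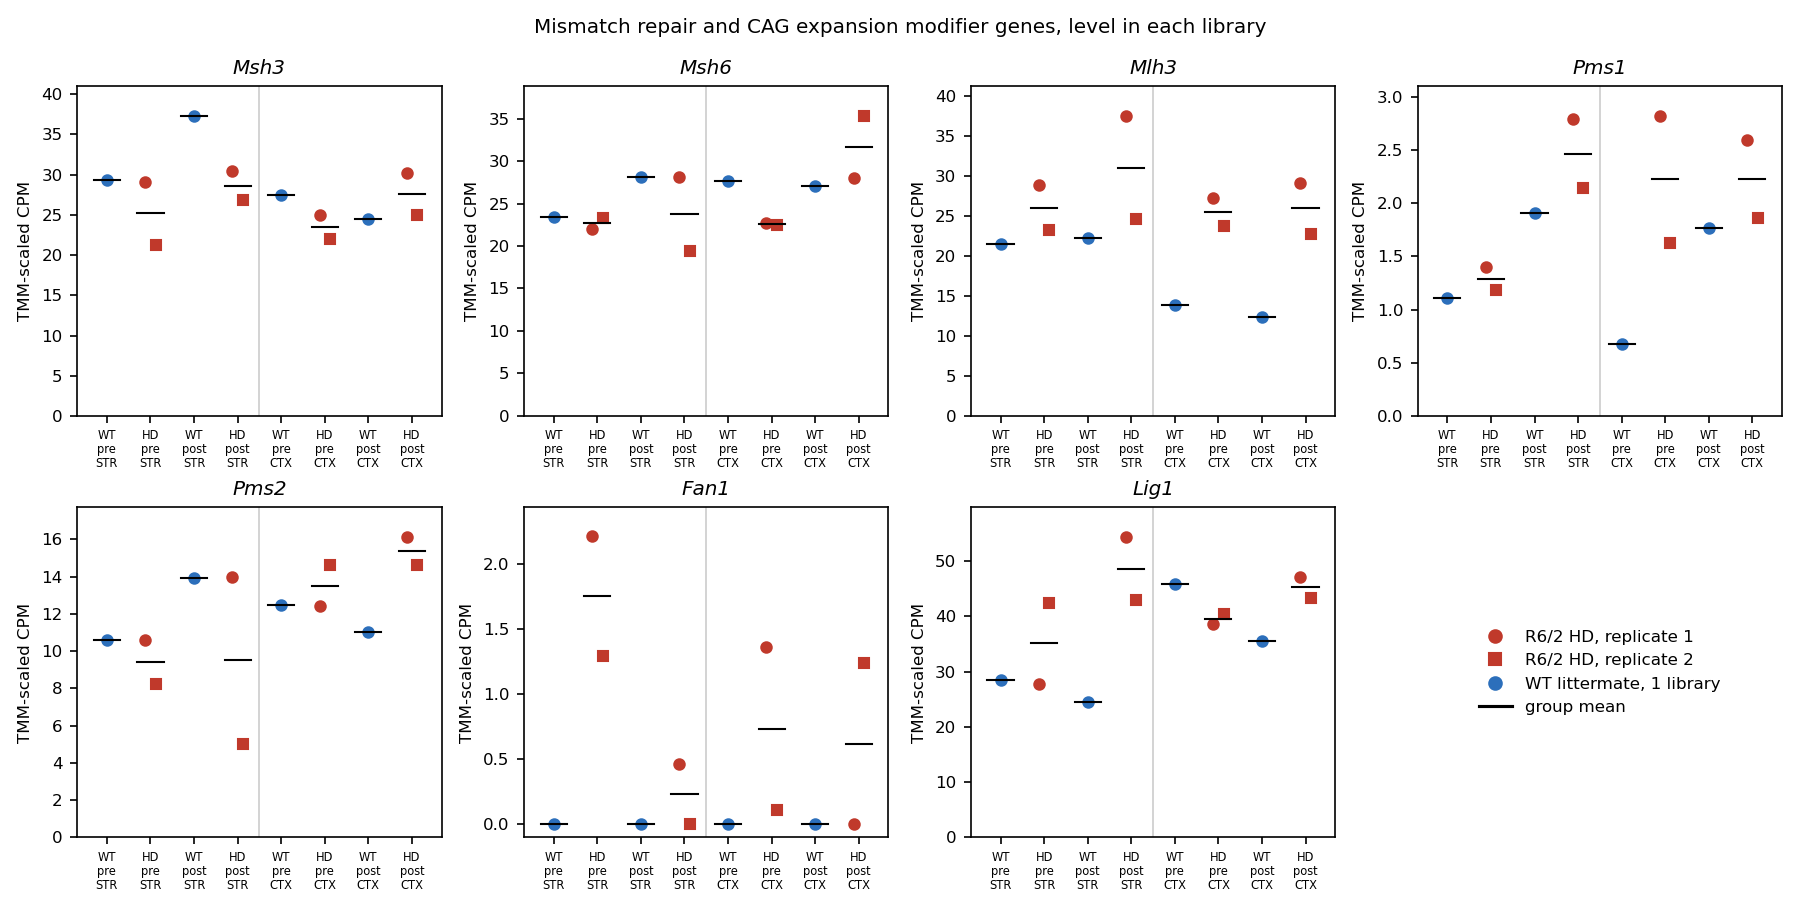
Level of each gene in every library in TMM-scaled CPM (y axis, each gene on its own scale) by genotype, age and region (x axis, STR striatum and CTX cortex); red circles and squares are HD replicates 1 and 2, blue circles single WT libraries and bars group means. Every HD point of Mlh3 lies above the WT point of its region and age, and Fan1 is at 0 in all 4 WT libraries.

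Mlh3, which encodes the MutLγ nuclease subunit, was higher in HD mice than in WT mice in both regions and at both ages. In the cortex its level was 29.1 and 22.8 CPM in post-symptomatic HD mice against 12.4 CPM in the WT library, and 27.2 and 23.7 CPM before onset against 13.9 CPM. In the striatum it was 37.5 and 24.6 CPM after onset against 22.2 CPM, and 28.9 and 23.2 CPM before onset against 21.5 CPM. All 8 HD libraries were above the WT library of their region and age, by a small margin in the second replicates of the striatum. At 13 weeks the log2 fold change was 0.75 (SE 0.25, 95% interval 0.21 to 1.28), and the edgeR quasi-likelihood test gave an adjusted p of 0.0877, short of the 0.05 threshold. At 8 weeks it was 0.58 (95% interval 0.04 to 1.11, adjusted p = 0.312).

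Over both ages, a comparison added after the values were seen, Mlh3 was 1.58-fold higher in HD mice (log2 fold change 0.66, SE 0.17, 95% interval 0.28 to 1.04) with an edgeR adjusted p of 0.0291. It was the 1 member of 7 that passed there, where 10.7% of 14706 genes passed and 6.18% passed as higher. An exact permutation of genotype within region and age, two-sided, gave p = 0.0123, the smallest that its 81 arrangements allow. That p is unadjusted for the 7 members tested in this way. The permutation takes striatal and cortical libraries as separate mice, and the labels do not say whether they were. All HD libraries lay above the matching WT library for Mlh3 and Pms1, as they did for 7.92% of all genes. The call held without the striatal library that stood apart (adjusted p = 0.0103) and was lost without any 1 of 8 other libraries, with an adjusted p of up to 0.174 when the post-symptomatic WT cortex was left out. Those 8 were all 4 WT libraries, the first replicates of the post-symptomatic striatum and of both cortical HD groups, and the second replicate of the pre-symptomatic cortex, and the log2 fold change then ranged from 0.52 to 0.81. At 13 weeks alone the call was instead gained without the striatal library that stood apart (adjusted p = 0.0434). The Rn45s share moved with genotype in the same libraries, and its part in the Mlh3 difference was not tested. Mlh3 was lower in the second HD replicate than in the first in all 4 HD groups (log2 fold change -0.36, SE 0.14, edgeR adjusted p = 0.598), a comparison in which 0.0347% of genes passed. With sex as a term, the difference between HD and WT mice over both ages was 0.65 (adjusted p = 0.0177), and at 13 weeks it was 0.54 (adjusted p = 0.178).

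Mlh3 did not pass for symptom onset or for region. In HD mice after against before onset, its log2 fold change was 0.15 (95% interval -0.25 to 0.54), 0.29 in the striatum and 0.01 in the cortex. Across the WT libraries Mlh3 was 22.2 and 21.5 CPM in the striatum and 12.4 and 13.9 CPM in the cortex. In the HD libraries the regions overlapped, and over all 12 libraries the striatum was higher by 0.34 on the log2 scale (95% interval -0.00412 to 0.69, edgeR adjusted p = 0.155). The excess over WT was larger in the cortex than in the striatum by 0.57 at 13 weeks and 0.59 at 8 weeks, and neither difference between regions passed (95% interval of striatum less cortex -1.61 to 0.48 and -1.64 to 0.46, edgeR adjusted p = 1 and 0.902). For either difference, 0% of genes passed.

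Lig1, the ligase that seals nicks after replication and long-patch repair, had higher levels in HD than in WT mice at 13 weeks in both regions, without passing the test. In the striatum its level was 54.3 and 43 CPM in HD mice after onset, 27.8 and 42.5 CPM before onset, and 24.6 and 28.5 CPM in the WT libraries at 13 and 8 weeks. In the cortex it was 47.1 and 43.4 CPM after onset, 38.6 and 40.5 CPM before onset, and 35.5 and 45.9 CPM in the WT libraries at 13 and 8 weeks. Within each region the HD libraries after onset were all above those before onset, by 43 against 42.5 CPM at the closest pair in the striatum, whereas the 8-week WT cortex was above all 4 pre-symptomatic HD libraries. At 13 weeks Lig1 was 1.58-fold higher in HD mice than in WT mice (log2 fold change 0.66, SE 0.22, 95% interval 0.17 to 1.15, edgeR adjusted p = 0.0986). At 8 weeks the log2 fold change was 0.02 (95% interval -0.45 to 0.50), and the difference between these changes was 0.64 (95% interval -0.04 to 1.31, adjusted p = 0.593). From before to after onset in HD mice, Lig1 differed by 0.33 (95% interval -0.04 to 0.70, edgeR adjusted p = 0.269). The exact permutation of age within region, two-sided, gave p = 0.0556 for it, the smallest that 36 arrangements allow, so that test could not pass 0.05. Without the striatal library that stood apart, the log2 fold change with onset was 0.43 (adjusted p = 0.123) and that against WT at 13 weeks 0.67, which then passed (adjusted p = 0.044).

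Msh3, which encodes a subunit of the loop-binding complex, passed in no comparison. Its level in the striatum was 30.4 and 26.8 CPM in HD mice after onset, 29.1 and 21.3 CPM before onset, and 37.3 and 29.3 CPM in the WT libraries at 13 and 8 weeks. In the cortex it was 30.2 and 25 CPM after onset, 25 and 22 CPM before onset, and 24.5 and 27.5 CPM in the WT libraries. In the striatum 3 of 4 HD libraries were below both WT libraries, and in the cortex the genotypes overlapped. Against WT mice the log2 fold change was -0.12 at 13 weeks (95% interval -0.54 to 0.29) and -0.22 at 8 weeks (95% interval -0.63 to 0.19), with edgeR adjusted p of 0.759 and 0.667. From before to after onset in HD mice it was 0.21 (95% interval -0.12 to 0.55, adjusted p = 0.445). These intervals leave room for a rise of up to 1.46-fold with onset and of up to 1.22-fold over WT at 13 weeks. They also leave room for a fall to 0.688-fold of WT at 13 weeks, 0.644-fold at 8 weeks and 0.92-fold with onset.

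Msh6, which encodes a subunit of the mispair-binding complex, passed in no comparison and spread more among HD libraries after onset than before it. It was at 28.1 and 19.4 CPM in the striatum and 28 and 35.3 CPM in the cortex after onset, and between 22 and 23.3 CPM in all 4 HD libraries before onset. The WT libraries had 28.1 and 23.4 CPM in the striatum and 27.1 and 27.7 CPM in the cortex at 13 and 8 weeks. The log2 fold change with onset was 0.28 (95% interval -0.10 to 0.66, edgeR adjusted p = 0.364), and against WT mice it was -0.01 at 13 weeks and -0.17 at 8 weeks.

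**Figure D2:**
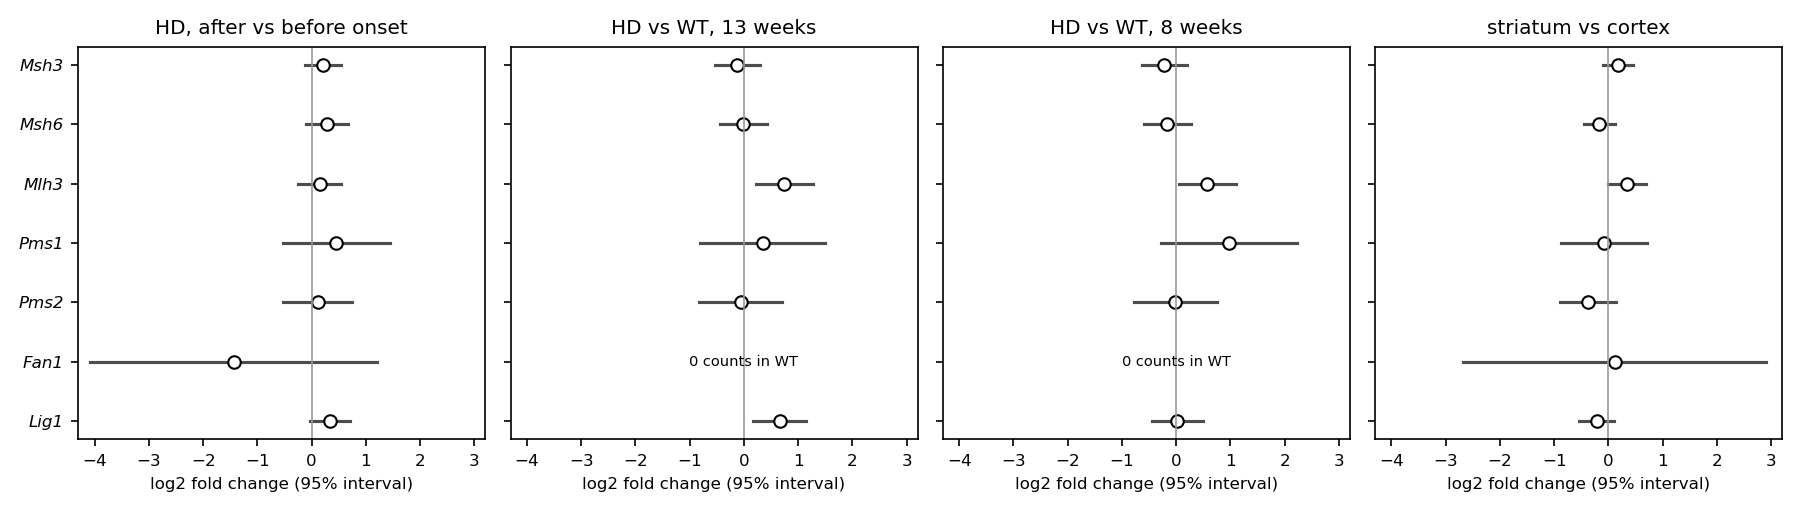
Log2 fold change of each gene (points) with its 95% interval (lines) from the edgeR fit, in 4 comparisons; a filled point would mark an adjusted p under 0.05. No point is filled, the intervals of Mlh3 and Lig1 lie above 0 against WT at 13 weeks, and Fan1 has no fitted value against WT, where it had no counts.

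MSH3 and MSH6 mark the loop-binding and the mispair-binding complex. Proteins were not measured here, and the ratio of Msh3 to Msh6 counts was taken within each library and compared between libraries only. In the striatum the log2 ratio was 0.12 and 0.47 in HD mice after onset, 0.40 and -0.12 before onset, and 0.41 and 0.33 in WT mice. In the cortex it was 0.11 and -0.50 after onset, 0.14 and -0.04 before onset, and -0.15 and -0.01 in WT mice. The mean was 0.26 ± 0.23 (SD, n = 6) in the striatum and -0.07 ± 0.23 (SD, n = 6) in the cortex, and the ranges overlapped. The mean difference between regions within groups was 0.36, and an exact permutation of region within genotype and age, two-sided, gave p = 0.0694 (0.208 adjusted over 3 comparisons). Without the striatal library that stood apart, which held the lowest striatal ratio, the difference was 0.43. Each striatal ratio left then lay above the cortical ratios of its genotype and age. That omission leaves a single library in its group, so no p-value is given for it. Over all 12 omissions of a single library the difference ranged from 0.29 to 0.44. The ratio differed by -0.05 between HD mice after and before onset (exact p = 0.889) and by -0.07 between HD and WT mice (exact p = 0.642). Taken singly, Msh3 was higher in the striatum by 0.17 and Msh6 lower by 0.17 on the log2 scale, and neither passed (edgeR adjusted p = 0.386 and 0.425).

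**Figure D3:**
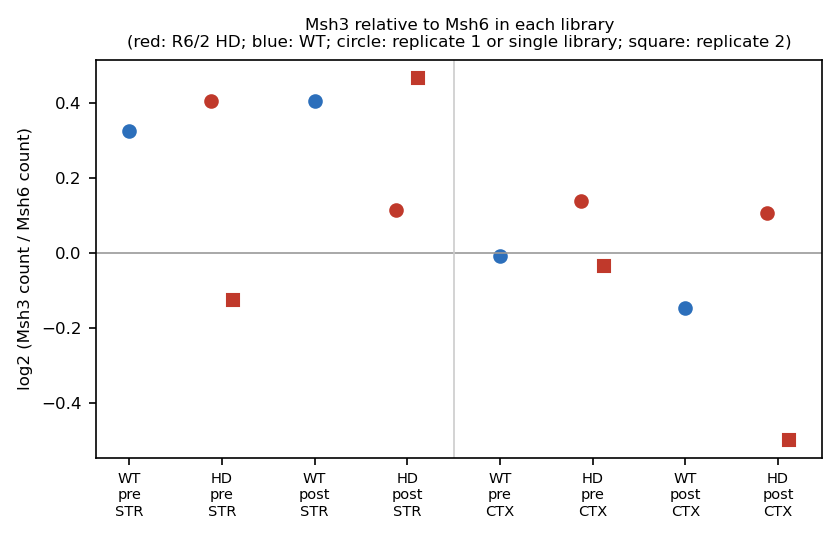
Log2 ratio of Msh3 to Msh6 counts in each library (y axis) by genotype, age and region (x axis); red is HD and blue WT, circles are replicate 1 or a single WT library, squares replicate 2. The ranges of the 2 regions overlap, and the lowest striatal point, a square, is the pre-symptomatic HD library with the highest oligodendrocyte marker sum.

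Pms2 and Pms1, the other MutL members, passed in no comparison. Pms2 was at 14 and 5.04 CPM in the HD striatum after onset, from 151 and 47 counts, and at 10.6 and 8.25 CPM before onset, against 13.9 and 10.6 CPM in WT mice. In the cortex it was 16.1 and 14.6 CPM after onset and 12.4 and 14.6 CPM before onset, against 11 and 12.5 CPM in WT mice at 13 and 8 weeks. The second post-symptomatic striatal library was the lowest of all 12, and the log2 fold change with onset was 0.11 (95% interval -0.52 to 0.74). Against WT mice Pms2 differed by -0.06 at 13 weeks and -0.02 at 8 weeks, with 95% intervals from -0.82 to 0.70 and from -0.78 to 0.75.

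Pms1 had 30 and 20 counts in the post-symptomatic HD striatum and 30 and 21 in the cortex, and 20 and 21 in the matching WT libraries. Before onset it had 12 and 11 counts in the HD striatum, 27 and 15 in the HD cortex, and 11 and 8 in WT mice. In CPM each HD library was above the WT library of its region and age, the closest by 1.18 against 1.11 CPM. The log2 fold change over both ages was 0.66 (95% interval -0.19 to 1.51, edgeR adjusted p = 0.322). The exact permutation of genotype, two-sided, gave p = 0.0247 for Pms1, unadjusted for the 7 members tested in this way. It too took the regions as separate mice.

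Fan1 had no count in any of the 4 WT libraries and 64 counts in the 8 HD libraries. Before onset it had 19 and 12 counts in the HD striatum and 13 and 1 in the HD cortex. After onset it had 5 and 0 counts in the striatum and 0 and 14 in the cortex. Counts were thus present in 6 of 8 HD libraries, and those at 0 were both from post-symptomatic mice. Summed over libraries, Fan1 stood at 1.23 CPM before onset (exact Poisson 95% interval 0.895 to 1.64) and 0.443 CPM after it (0.266 to 0.691), and these intervals cover counting error only. No counts over the WT libraries allow up to 0.138 CPM at 8 weeks and 0.134 CPM at 13 weeks, taking 3 counts over each group as the limit. Set against that limit, the summed level was 8.89-fold higher in HD mice before onset and 3.29-fold higher after it. From the lower ends of the Poisson intervals it was 6.48-fold and 1.98-fold. These folds are not lower bounds. The exact Poisson upper limits of the WT libraries were higher, 0.17 CPM at 8 weeks and 0.165 CPM at 13 weeks, and the spread between libraries is not covered. After onset, 14 of the 19 counts came from the second cortical replicate. Without it the level was 0.158 CPM, 1.17-fold over the limit of 3 counts. The edgeR test, which weighs the spread between libraries, gave adjusted p of 0.286 and 0.301, and 0.0759 over both ages. Of the 1684 genes tested whose HD counts were within 2 times of those of Fan1, 8 (0.475%), Fan1 among them, had none in any WT library. That set was picked by summed HD counts and takes no account of the spread between libraries, so the share is a description and not a test. The Rn45s share moved with genotype in the same libraries, and its part in the Fan1 counts was not tested. From before to after onset in HD mice, the Fan1 log2 fold change was -1.44 with a 95% interval from -4.08 to 1.20 (edgeR adjusted p = 0.52).

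Counted by comparison, none of the 7 members passed with symptom onset, and the intervals of Fan1 and Pms1 were wide. None passed in HD mice after against before onset, where 6.45% of 13944 genes did (edgeR adjusted p from 0.269 to 0.861, 0 members with an unadjusted p under 0.05, and 0 called by DESeq2). Their median log2 fold change was 0.21 against 0.00 for all genes, with 6 positive and Fan1 negative, and only Lig1 had groups that did not overlap, as 20.8% of all genes did. None passed in the striatum alone (0.16% of 14392 genes passed) or in the cortex alone (0.591% passed), with 0 unadjusted p under 0.05 and 0 called by DESeq2 in either. In the striatum the members' values were highest for Pms1 (0.96, 95% interval -0.48 to 2.40) and Lig1 (0.49) and lowest for Fan1 (-2.76, 95% interval -6.81 to 1.29). In the cortex they were highest for Msh6 (0.47) and Msh3 (0.21).

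Against WT mice, none passed at 13 weeks, where 7.36% of 14706 genes did, although Mlh3 and Lig1 had an unadjusted p under 0.05, as 22.3% of genes did, and DESeq2 called Mlh3. Groups of Mlh3, Pms1 and Lig1 did not overlap there, as for 43.9% of all genes. None passed at 8 weeks, where 2.1% of genes did (edgeR adjusted p from 0.286 to 0.993, and 0 called by DESeq2), and Mlh3 and Fan1 had an unadjusted p under 0.05, as 13.9% of genes did. At that age 5 of 7 did not overlap, with Msh3 and Msh6 lower and Mlh3, Pms1 and Fan1 higher, as for 30.8% of all genes. None passed for the change with age in HD less that in WT mice, where 0.116% of genes did, or between striatum and cortex, where 20.6% did, with 0 unadjusted p under 0.05 and 0 called by DESeq2 in both. In the region comparison Mlh3 (0.34), Msh3 (0.17) and Fan1 (0.12) were positive, and Pms2 (-0.38), Lig1 (-0.22), Msh6 (-0.17) and Pms1 (-0.08) were negative.

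Genes that work beside the members moved in a few cases. Of the 20 listed partners and accessory factors of mismatch repair, 16 were tested, and at 13 weeks 1 was higher and 1 lower in HD than in WT mice, with a median log2 fold change of 0.10 against 0.01 for all genes. Rfc1, the large subunit of the clamp loader that places PCNA on DNA, was at 62.9 to 98.4 CPM in post-symptomatic HD mice, 63 to 78.2 CPM before onset and 41.9 to 50.4 CPM in WT mice, with no overlap. It rose by 0.71 at 13 weeks and 0.74 at 8 weeks (edgeR adjusted p = 0.0255 and 0.0448). Rfc5, a small subunit of the same loader, fell by 1.36 at 13 weeks (adjusted p = 0.0101), with 4.35 to 5.79 CPM in HD and 11.4 and 14.7 CPM in WT mice. Rfc5 overlaps Wsb2 on the other strand, so its reads may be shared. None of the 16 passed with onset in HD mice.

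Ccdc82 and Gsg1l, placed by human studies near loci for HD onset, passed against WT mice at 13 weeks. Ccdc82 was at 19.9 to 30.4 CPM after onset against 4.87 and 7.52 CPM in WT mice, a rise of 1.89 (edgeR adjusted p = 0.00626). Gsg1l, an AMPA receptor auxiliary subunit, fell from 51.1 to 116 CPM before onset to 16.5 to 27.4 CPM after it (log2 fold change -1.94, adjusted p = 0.00597). Its level in WT mice was 100 to 195 CPM.

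Of the 7 ligases and polymerases, Polb and Pola1 passed with onset and against WT at 13 weeks. Polb, the gap-filling polymerase of base excision repair, was at 22.9 to 26.3 CPM after onset, 45.7 to 56.6 CPM before onset and 50.1 to 64.8 CPM in WT mice. It fell by 1.01 on the log2 scale with onset (edgeR adjusted p = 0.0036). Pola1, the polymerase that makes primers in replication, was at 9.93 to 23.4 CPM after onset against 4.5 to 9.54 CPM before it (log2 fold change 1.15, adjusted p = 0.0271). None of the 12 FAN1 partners and structure nucleases tested passed against WT mice at either age, nor any of the 10 tested with onset. Of 11 proliferation genes tested, Mcm7, which overlaps Cops6, passed at 13 weeks (log2 fold change 0.78, adjusted p = 0.0439). These lists were drawn up with earlier results of the same data known, and the calls among them were not repeated with libraries left out.

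**Figure D4:**
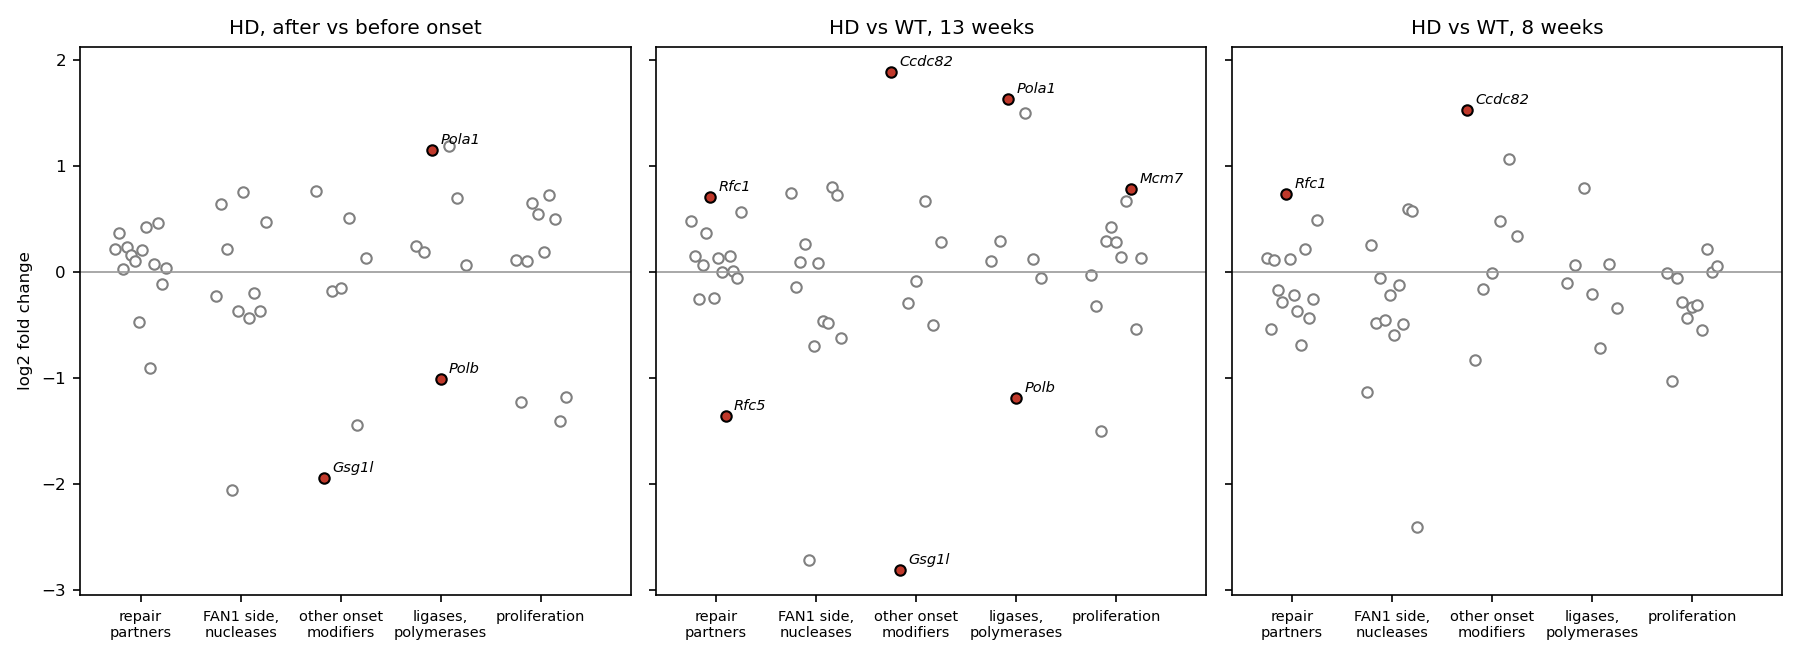
Log2 fold change of listed partner genes (y axis) by list (x axis) in 3 edgeR comparisons; each point is a gene and filled named points have an adjusted p under 0.05. Among the genes plotted, those filled with onset are Pola1, Gsg1l and Polb, and at 8 weeks against WT they are Rfc1 and Ccdc82.

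Between regions 20.6% of 14706 genes passed. In the striatum 2 of 16 tested partners of mismatch repair and 2 of 7 ligases and polymerases were higher. So were 3 of 11 proliferation genes and 1 of 8 other onset modifiers, and no gene of these lists was lower. Of 12 FAN1 partners and structure nucleases, 1 was higher and 1 lower. Lig3, the ligase of single-strand break repair, was at 16.9 to 25.4 CPM in the striatum and 9.3 to 15.6 CPM in the cortex. That was a rise of 0.80 (edgeR adjusted p = 0.00375), whereas Lig1 differed by -0.22 (adjusted p = 0.335). The last 1826 bases of Lig3 overlap Rffl on the other strand, so its reads may be shared. Rpa2, a single-strand binding subunit, was higher in the striatum by 0.58 (adjusted p = 0.00311) and Pold2, a subunit of polymerase delta, by 0.61 (adjusted p = 0.0437). Ercc4, which encodes the XPF nuclease, was higher by 0.51 (adjusted p = 0.0401), with regions that overlapped. Eme1, a partner of the nuclease MUS81, was lower by 0.41 on the log2 scale, with 24.3 to 35.8 CPM in the striatum and 36.1 to 42.3 CPM in the cortex, and it overlaps Lrrc59 and Mrpl27 on the other strand.

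Over the 12 libraries, the genes whose log2 CPM followed each member most closely were listed as a description. For Mlh3 they were Ppwd1 (Pearson r = 0.945), Rsf1 and Dido1 (both 0.94), for Lig1 Zfp52 (0.923), for Pms2 Gstm4 (0.914) and for Pms1 Fam35a (0.922). Zfp68 (0.893) was among the nearest to Msh3, Zfp707 (0.888) was nearest to Msh6 and Myom1 (0.896) to Fan1. No member was among the 3 nearest genes of another member. These correlations share libraries, depth and genotype among all points.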

How the data were processed

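Libraries were made from 500 ng of total RNA of mouse striatum or cortex with the Lexogen QuantSeq kit, which reads 3′ ends. The authors deposited raw counts per gene symbol, 1 table per library. The submitters' processing notes name mm10, Bowtie2 and bedtools without versions. Annotation, strand and counting rule are not given in the sources used here. Of 23282 rows, 44 repeated a symbol and 4306 had no count.

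Groups came from the labels. Counts were tested with edgeR 4.0.16 in R 4.3.3 (TMM scaling, the filterByExpr filter set to 10 counts, quasi-likelihood test in its robust form), p-values were adjusted by Benjamini and Hochberg over all genes tested, and 0.05 was the limit for a call. The effect of onset was fitted in the 8 HD libraries, with a region term or, for single regions, group means. Genotype and region effects were fitted in all 12 libraries with terms for region and for each combination of genotype and age. A WT group is a single library, so the spread among WT mice of a group is unknown, and regions were treated as independent. On simulated counts for HD after against before onset (13706 genes), edgeR recovered 154 of 200 changed genes with 4.94% false calls. It recovered 105 for onset in the striatum alone, 134 for post-symptomatic HD against WT mice and 160 between regions, each of 200. The median absolute log2 fold change in these simulations was 1.46 to 1.54. Recovery of smaller changes, such as those of Mlh3 and Lig1, was therefore not tested.

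Total counts ran from 8814386 to 12091201 per library, reads carry no molecular identifiers, and intervals from counts cover counting error only. Results were recomputed with DESeq2 1.42.0, with upper-quartile scaling, with no filter, with at least 1 CPM in every library, the replicate number as a block, limma 3.58.1 voom with a random block, sex as a term, a mean for each of 8 groups and leaving out each library in turn. The comparison over both ages, of replicate 2 with 1, of regions within a contrast and the Msh3 to Msh6 ratio were added after values were seen. Correlations of deviations between same-numbered replicates were 0.00247 to 0.185 over all pairs of HD groups. Between the regions of one age they were 0.166 after onset and 0.0994 before it. The sex read from Xist and Ddx3y was the same in both regions of each number, genotype and age. These values cannot decide whether a number marks a mouse, and the numbers were not taken to pair samples. If regions did share mice, the fits and permutations would overstate the number of independent samples. The members and lists were chosen with earlier results of these data known. All members were named, with list genes that passed in a comparison, and some results are not reported here. Coordinates are from GENCODE M21 and promoter stretches from RefSeq. Counts of HD replicates were too far apart for 1 library deposited under both names (chi-square over its degrees of freedom, 7.05 to 74.3).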

Additional observations from a re-analysis of the deposited data

How the results depend on the processing

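Of 899 member fold changes recomputed, 830 kept direction and side of the threshold, 57 changed direction without any adjusted p under 0.05, 4 gained a call and 8 lost it (Mlh3 over both ages, each without 1 library). Each WT group is 1 library, and Pms1 and Fan1 are limited by counts. No cause of a changed value was tested.

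With a replicate block, 36 genes passed with onset in the striatum (23 without it). Mlh3 at 13 weeks was then 0.91 (edgeR adjusted p = 0.0378), so 1 member passed there. The second HD replicates were female, but the 13-week WT libraries, numbered 1, were female too, so the block does not separate the sexes at that age. With sex as a term, Mlh3 at 13 weeks was 0.54 (edgeR adjusted p = 0.178). The block turned Pms2 with onset in the striatum (-0.00985), Pms1 (0.00096) and Fan1 (0.23) with onset in the cortex, Msh3 (0.00596) and Pms2 (0.0921) against WT at 13 weeks, and Pms2 at 8 weeks (0.17) and over both ages (0.13). The numbers were not shown to pair samples, and the block changed no other member call.

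DESeq2 called 1680 genes with onset (900 in edgeR), 447 in the striatum, 558 in the cortex (85 in edgeR), 1813 against WT at 13 weeks (1082), 674 at 8 weeks (309) and 231 for the change with age (17). It called 1 member at 13 weeks (Mlh3, adjusted p = 0.0427) and 2 over both ages (Mlh3 and Fan1). Without a filter, 163, 251 and 30 genes passed in the striatum, in the cortex and for the change with age. Upper-quartile scaling gave 45 in the cortex and 5 for the change with age, and turned Pms1 in the cortex (0.0514), Msh6 at 13 weeks (0.0415) and Pms2 for the change with age (0.0193). Voom gave 153 in the cortex and turned Pms2 in the striatum (-0.0745) and Pms1 in the cortex (0.00528). Sex as a term left 0 genes for the change with age and turned Pms2 at 8 weeks (0.17) and Msh3 (-0.18) and Mlh3 (-0.21) for that change. With 8 group means, 130 genes passed at 8 weeks and 2 for the change with age, and Pms1 (0.0376) and Fan1 (-0.0221) turned between regions.

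Leaving out each library in turn gave 211 to 1518 genes with onset, 0 to 1083 in the striatum, 0 to 1202 in the cortex, 29 to 1834 against WT at 13 weeks, 0 to 444 at 8 weeks, 490 to 2029 over both ages and 0 to 211 for the change with age. Members called ranged from 0 to 2 at 13 weeks and 0 to 1 over both ages. The Msh3 to Msh6 difference ranged from 0.29 to 0.44 between regions, -0.20 to 0.10 with onset and -0.15 to 0.00305 with genotype. With onset, Mlh3 ranged from -0.0132 to 0.24 and Pms2 from -0.20 to 0.34 over both regions. In the striatum the ranges were Msh3 -0.0222 to 0.43, Msh6 -0.20 to 0.34, Mlh3 -0.0474 to 0.56 and Pms2 -0.87 to 0.60. In the cortex they were Mlh3 -0.17 to 0.17, Pms1 -0.36 to 0.43 and Fan1 -5.86 to 2.37. Against WT at 13 weeks they were Msh3 -0.37 to 0.15, Msh6 -0.14 to 0.12, Pms2 -0.46 to 0.40, Mlh3 0.47 to 1.06 and Lig1 0.48 to 0.85. At 8 weeks they were Lig1 -0.24 to 0.33 and Pms2 -0.0998 to 0.0698, and over both ages Pms2 -0.24 to 0.19 and Mlh3 0.52 to 0.81. For the change with age they were Msh3 -0.15 to 0.37, Mlh3 -0.0938 to 0.50 and Pms2 -0.44 to 0.43, and between regions Pms1 -0.22 to 0.11 and Fan1 -0.52 to 1.51. Without the striatal library that stood apart, 1054 genes passed with onset in the striatum and 1197 in the cortex.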
